A study of Mus musculus with 40 samples.

Results

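The genes of the cytosolic ribosomal proteins were examined on 40 two-colour arrays of mouse embryonic stem (ES) cells. A gene was taken as a member where its symbol is Rps, Rpl or Rplp followed by a number, with an a, x or l suffix allowed, so that the Rps6k kinases and the mitochondrial Mrps and Mrpl genes stayed out. The rule found 75 genes among 13788 named genes, and none of them was chosen by its measured values. The late arrays held 97 member probes of 21052 gene probes, for 71 genes. The early arrays held 139 of 42006 for 74 genes, and the arrays of the Nanog experiment held 135 of 41006 for 73 genes.

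The cells of the first 2 experiments were ZHBTc4, a male 129/Ola ES line in which tetracycline (Tet) shuts off the transgene that supplies Pou5f1, and the untreated controls carry the same transgene. In the late series they were collected before Tet and every 24 hr up to 120 hr with 3 arrays a time, and in the early series before Tet and after 3, 6, 12 and 24 hr with 2 arrays a time. In the Nanog experiment, 4 lines were kept for 3 days with LIF, without LIF, or with LIF and 1 µM retinoic acid (RA), with 1 array for each line and medium. The lines were MG1.19 (129Sv), a clone labelled as carrying an episomal Nanog vector in the same background, the line labelled 129.3 (129SvEv-Tac), and a clone of that background with an integrated Nanog construct. Each kind of construct was thus a single clone, and the background of a line and the day of its RNA extraction cannot be told apart. Every array set a sample in Cy3 against Universal Mouse Reference RNA in Cy5, with no dye swap, so all levels below are M, the log2 ratio of Cy3 to Cy5 on that array.

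A ribosome has a small subunit, which reads the mRNA, and a large subunit, which joins the amino acids. Their proteins are made in near equal amounts, from mRNAs that are among the most abundant of a dividing cell and that typically begin with an unbroken run of pyrimidines, the signal through which growth pathways control their translation. A few members have a close paralog, such as Rpl39l beside Rpl39, whose expression is more restricted to certain tissues.

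The annotated starts of the mRNAs are shown first, since this run is the sequence feature the family is known for. In windows of 15 bases before and 15 bases from each start, read from RefSeq sequence of GRCm38.p6 on the strand of the gene only, 59 of 75 member genes matched, with 70 starts. An unbroken run of at least 8 bases made only of C and T, covering the start, was present at 16 of 70 member starts (22.9%) and at 1268 of 32851 starts of all genes in that table (3.86%). The windows below were chosen from members described further on, with every matched start of each, and other matched members are not shown. They are printed with such a run of any length across the start in capitals. A match describes letters and not a working signal, and a missing run says only that these letters are not at the start as annotated.
Rpl27a, chr7:109519180-109519209, plus strand: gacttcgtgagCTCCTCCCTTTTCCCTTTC
Rpl38, chr11:114668565-114668594, plus strand: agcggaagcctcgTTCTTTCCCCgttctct
Rps27, chr3:90213634-90213663, minus strand: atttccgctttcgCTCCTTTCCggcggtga
Rps27l, chr9:66946071-66946100, plus strand: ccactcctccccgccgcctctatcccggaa
Rps27l, chr9:66946398-66946427, plus strand: accatgggcttcagggtcactaacgggcct
Rpl31, chr1:39367836-39367865, plus strand: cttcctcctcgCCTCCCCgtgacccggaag
Rpl39, chrX:37085208-37085237, minus strand: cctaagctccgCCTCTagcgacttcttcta
Rps23, chr13:90923107-90923136, plus strand: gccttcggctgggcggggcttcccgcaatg
Rps15, chr10:80292416-80292445, plus strand: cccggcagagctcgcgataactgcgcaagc
Rpl22, chr4:152325711-152325740, plus strand: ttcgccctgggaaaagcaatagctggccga
Rpl22, chr4:152324421-152324450, plus strand: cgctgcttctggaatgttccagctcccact
Rpl22l1, chr3:28805493-28805522, plus strand: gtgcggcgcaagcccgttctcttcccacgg
Rpl7l1, chr17:46782642-46782671, minus strand: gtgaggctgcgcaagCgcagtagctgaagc
Rpl39l, chr16:10170213-10170242, plus strand: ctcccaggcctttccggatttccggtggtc

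The members were so bright that the scanner limited them. Only 49 of 97 member probes had no saturated spot in either dye on any late array, against 65 of 139 on the early arrays and 58 of 135 on the Nanog arrays. Where both dyes were saturated, probes of different genes gave the same M on an array: those of Rplp1, Rps2, Rpl3 and Rps14, and one probe of Rps23, all read 0.19, 0.27 and -0.25 on the 3 arrays of 0 hr. The third of these arrays stood apart, with 43 member spots saturated in Cy3 against 25 and 22 on the other two. The number then fell to 0, 5 and 5 at 120 hr, while 30 to 39 member spots were saturated in Cy5 on every late array. A gene is therefore given by its main probe, the brightest of its probes that never saturated, or, where none was free of saturation, the brightest one, named as saturated.

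Ribosomal protein transcripts fell over the 5 days in which Pou5f1 was off. Pou5f1 itself dropped from an M of 2.12 ± 0.25 (SD, n = 3) at 0 hr to -0.07 ± 0.21 after 24 hr and was 0.05 ± 0.07 after 120 hr. At 120 hr, 72 of 97 member probes were lower than at 0 hr and 6 were higher at an adjusted p of 0.05 (limma, Benjamini-Hochberg over all gene probes). Of all gene probes, 21.3% were lower and 23.5% were higher. The median change of the member probes was -0.51 on the log2 scale (1.43-fold lower), and that of all gene probes was -0.00060. These are ratios within arrays scaled to the bulk of the probes, and in cell cultures fewer cells of a type and less RNA per cell cannot be told apart.

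The fall was gradual. After 24, 48, 72 and 96 hr, 28, 41, 47 and 62 member probes were called lower, beside 15.6%, 16.7%, 17.2% and 19.8% of all gene probes. Higher calls among the members numbered 4, 8, 3 and 1 at these times, beside 15.1%, 16.5%, 19.1% and 22% of all gene probes. The median changes in this order were -0.16, -0.15, -0.23 and -0.39. By the F test over all times, 71 of 97 member probes changed, against 50.1% of all gene probes. Lower by at least 1.5-fold as well were 5, 11, 21 and 39 members on the first 4 days and 47 on the fifth. This call took 3.61%, 4.79%, 6.41%, 7.3% and 8.61% of all gene probes in the same order.

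The change was larger in the probes that the scanner did not limit. Of the 49 never saturated, 46 were lower at 120 hr and 1 was higher, with a median of -0.93 (1.90-fold lower). Of the 48 saturated on some array, 26 were lower and 5 were higher, with a median of -0.34. The median M of the never-saturated members was 0.04, 0.06 and 0.18 on the arrays of 0 hr, then -0.16, -0.21 and -0.07 at 24 hr, and -0.64, -0.79 and -0.84 at 120 hr. All arrays of 24 hr lay below all arrays of 0 hr, and those of 96 and 120 hr below all arrays of 72 hr and before. Over all member probes the third array of 0 hr read -0.25, within the range of 72 hr, which is the array with the most saturated members. For 44 of the 47 never-saturated members measured on all arrays of both times (93.6%), all arrays of 120 hr lay below all those of 0 hr, against 25.5% of all gene probes.

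**Figure D1:**
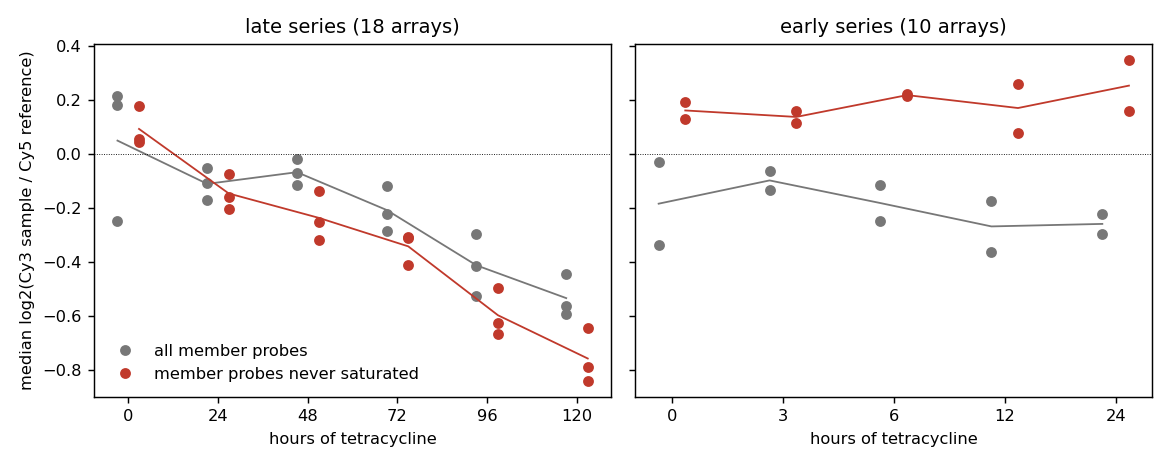
Median log2 ratio of Cy3 sample to Cy5 reference over the ribosomal protein probes of each array (1 point an array, lines through the means) against hours of tetracycline, for the 18 late and 10 early arrays. In the late series the never-saturated probes go from 0.04, 0.06 and 0.18 at 0 hr to -0.64, -0.79 and -0.84 at 120 hr, and the early arrays show no such course.

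By main probe, 54 of 71 member genes were lower and 4 were higher at 120 hr, with a median change of -0.62. The small subunit gave 20 lower and 2 higher of 30 genes, with a median of -0.54. The large subunit gave 32 lower and 1 higher of 38, with a median of -0.68. Of the 71 genes, 24 first passed as lower on the first day, 11 on the second, 6 on the third, 10 on the fourth and 3 on the fifth, and 17 never did. Of the 44 genes whose main probe never saturated, 42 had their lowest mean at 120 hr, 24 moved down at every step, and 11 were above their 0 hr mean at 24 hr. Their changes at 120 hr ranged from -2.54 to -0.08, with an SD of 0.48 between genes.

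**Figure D2:**
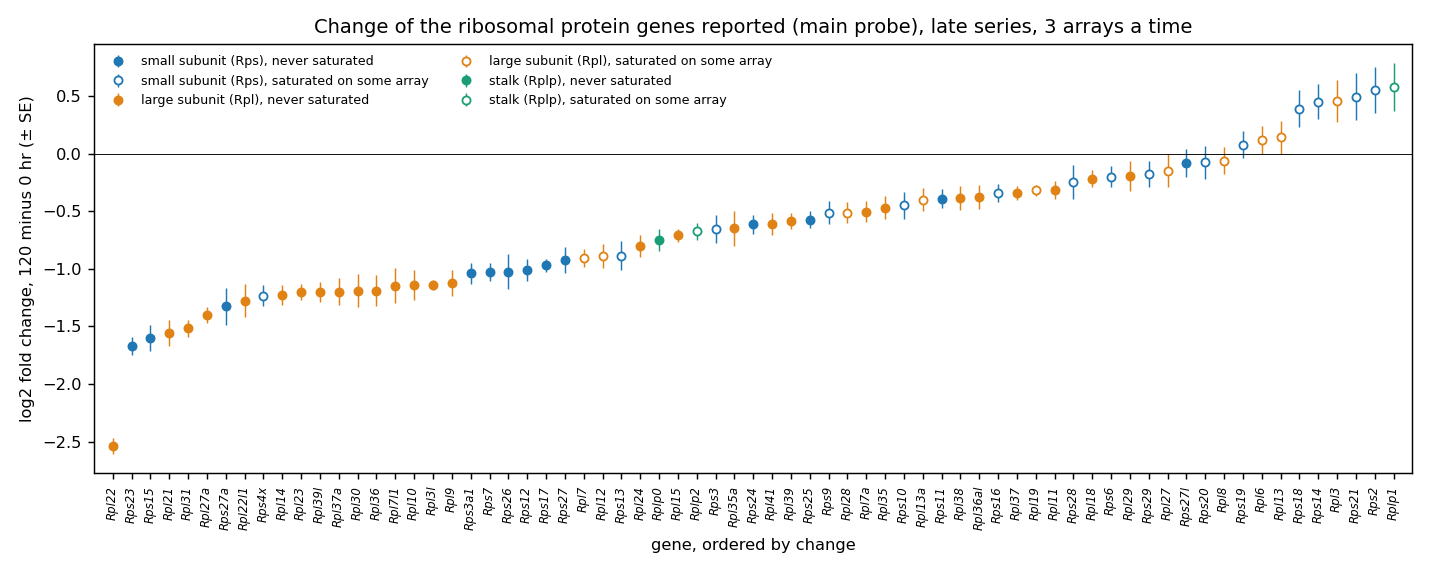
Log2 fold change at 120 hr minus 0 hr of Tet (± SE from the limma fit, 3 arrays a time) of the ribosomal protein genes reported, by main probe, ordered by change and coloured by subunit; open points were saturated on some array. Rpl22 stands lowest at -2.54, the filled points all lie below 0, and the points above 0 are all open.

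In the small subunit, Rps23, a protein of the decoding centre, fell most. Its M was 0.09, 0.17 and 0.29 at 0 hr, -0.50, -0.46 and -0.31 after 24 hr, and -1.37, -1.51 and -1.59 after 120 hr. The change at 120 hr was -1.67 (SE 0.07, 3.18-fold lower, adjusted p = 5.65e-12). A second Rps23 probe, saturated in Cy5 on all 18 arrays, showed a change of -0.05 (adjusted p = 0.82). Rps15, of the subunit head, read 0.36, 0.46 and 0.59 at 0 hr and already -0.22, -0.30 and -0.72 at 24 hr. It read -1.13, -1.24 and -1.02 at 120 hr (change -1.60, SE 0.11, adjusted p = 2.51e-09), with all treated arrays below all untreated ones.

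Further small subunit genes fell less or were limited by saturation. Rps27a, which is made as a fusion with ubiquitin, was 2.50-fold lower at 120 hr (adjusted p = 2.15e-06), and Rps4x, from the X chromosome, changed by -1.23 (adjusted p = 4.37e-09), on a probe saturated in Cy5 throughout and in Cy3 on 2 arrays, so that no fold is given for it. Rps25, which some viral and cellular internal ribosome entry sites need, was not lower until 96 hr: its M was -0.70, -0.53 and -0.59 at 0 hr, -0.32 and -0.15 on the 2 arrays that measured it after 48 hr, and -1.08, -1.19 and -1.28 after 120 hr (change -0.58, adjusted p = 1.43e-05). Rps6, the substrate of the S6 kinases, changed by -0.20 (adjusted p = 0.084) and Rps19, the gene most often mutated in Diamond-Blackfan anaemia, by 0.08 (adjusted p = 0.64). Both of these main probes were saturated in Cy5 on all 18 arrays. A dimmer Rps6 probe, saturated in Cy5 on 1 array and never in Cy3, read -0.58, -0.62 and -0.28 at 0 hr and -0.81, -1.01 and -1.04 at 120 hr, a fall (change -0.46, SE 0.09, adjusted p = 4.27e-04). For Rps10 and Rps9, saturated in Cy3 on every array of 0 hr and on none of 120 hr, the Cy3 signal was at least 1.38-fold and at least 1.31-fold lower, counting a saturated spot at its value. These bounds hold for Cy3 as scaled between arrays. With that of Rpl12 they were the largest among the 21 member probes saturated in Cy3 on all arrays of 0 hr. The next was 1.17, and others lay below 1, down to 0.78 for a probe of Rps2, which gives no direction.

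In the large subunit Rpl22, an RNA-binding protein that cells can do without for most translation, fell the most of all members. Its M was -0.24, -0.23 and -0.08 at 0 hr, -1.20, -1.17 and -1.35 after 24 hr, -1.59, -1.42 and -1.46 after 48 hr, -2.22, -2.12 and -2.11 after 72 hr, -2.24, -2.16 and -2.14 after 96 hr, and -2.82, -2.69 and -2.65 after 120 hr. No array of a treated time overlapped the untreated ones, and each step between times was wider than the spread of the 3 arrays, except that from 72 to 96 hr, where the arrays overlapped. It fell by 1.06 after 24 hr (adjusted p = 4.33e-09) and fell by 2.54 after 120 hr (SE 0.07, 5.80-fold lower, adjusted p = 7.67e-15). The early series did not show the fall of the first day: the probe of the same sequence read -0.70 and -0.91 at 0 hr and -0.88 and -0.83 at 24 hr there (change -0.05, adjusted p = 0.84).

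Rpl21, Rpl31 and Rpl27a, proteins within the body of the large subunit, took a later course. Rpl31 was -0.06, 0.09 and 0.27 at 0 hr, -0.16, -0.05 and 0.04 after 24 hr, and -1.48, -1.39 and -1.38 after 120 hr, so that the first day overlapped the control and the last did not. Its change at 120 hr was -1.52 (SE 0.07, adjusted p = 1.07e-11). Rpl21 changed by -1.56 (SE 0.11, adjusted p = 3.06e-09) and Rpl27a by -1.40 (SE 0.07, adjusted p = 5.41e-11), and each first passed as lower at 48 hr. Rpl12, saturated in Cy3 on all arrays of 0 hr, had a Cy3 signal, as scaled between arrays, at least 1.74-fold lower at 120 hr.

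Members with roles outside routine translation differed in course. Rpl38, known for the translation of Hox mRNAs, was 0.63, 0.55 and 0.40 at 0 hr and higher on every array of 24 hr, at 1.05, 0.94 and 1.24 (change 0.55, SE 0.10, adjusted p = 5.34e-04). The probe of the same sequence changed by -0.03 at 24 hr of the early series (adjusted p = 0.88). In the late series Rpl38 then read 0.34, 0.05 and 0.04 at 120 hr, where the change was -0.38 (adjusted p = 0.0052). Rpl11, which with 5S RNA binds the p53 regulator Mdm2, changed by -0.32 (SE 0.08, adjusted p = 0.0027), with only the last 2 times called lower. Rpl10, needed for the last step of 60S maturation, changed by -1.14 (SE 0.13, adjusted p = 2.01e-06).

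The stalk proteins Rplp0, Rplp1 and Rplp2, which bring elongation factors to the ribosome, could be read in part. Rplp0 changed by -0.75 (SE 0.10, adjusted p = 4.69e-06). Rplp2, saturated in Cy3 on 1 array, was 0.44, 0.55 and 0.25 at 0 hr and -0.12, -0.32 and -0.35 at 120 hr, a change of -0.67 (SE 0.07, adjusted p = 4.68e-07), with no overlap.

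The 4 member genes called higher at 120 hr were Rplp1 (0.58, adjusted p = 0.032), Rps2 (0.55, adjusted p = 0.034), Rpl3 (0.46, adjusted p = 0.0496) and Rps14 (0.45, adjusted p = 0.023), and each turned negative when the arrays were centred on their median in place of loess (-0.08, -0.10, -0.19 and -0.19). Their probes were saturated in Cy3 on 15 to 17 of the 18 arrays and in Cy5 on all 18. Their levels at 120 hr came mostly from the first array, where Rplp1 read 1.11, Rps2 1.03, Rpl3 0.76 and Rps14 0.73, against 0.37 on the second array and 0.44 or 0.45 on the third for each. Without that array the changes were 0.34 for each, and the adjusted p-values were 0.18 for Rplp1, Rps2 and Rpl3 and 0.11 for Rps14. Without the third array of 0 hr they were 0.42, 0.39, 0.30 and 0.29, with adjusted p-values of 0.14, 0.15, 0.22 and 0.13. No direction is given for these 4 genes. Of the 3 other Rps2 probes, the one with the fewest saturated spots (2 in Cy3, none in Cy5) was lower (-0.38, adjusted p = 0.015). The single never-saturated probe that was higher belonged to Rpl29 (0.54), whose main probe changed by -0.20. It is named here after its value was seen.

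The paralog pairs did not move alike. Rps27, a zinc finger protein of the small subunit, was 0.23, 0.38 and 0.32 at 0 hr and -0.38, -0.71 and -0.76 at 120 hr (change -0.92, SE 0.11, adjusted p = 2.06e-06). Its paralog Rps27l, a target of p53, was 0.04, -0.04 and 0.18 at 0 hr, 0.56, 0.35 and 0.32 after 72 hr and 0.25, -0.10 and -0.23 after 120 hr. All its arrays of 72 hr lay above those of 0 hr (change 0.35, adjusted p = 0.030), and those of 120 hr overlapped them (change -0.08, adjusted p = 0.62). Rps27l minus Rps27 was -0.25 ± 0.15 (SD, n = 3) at 0 hr and 0.59 ± 0.05 at 120 hr, a change of 0.84 (two-sided exact permutation test, p = 0.1, the smallest that 3 against 3 arrays allow). On the early arrays, the same difference by main probe changed by 0.55 from 0 to 24 hr (2 against 2 arrays, exact p = 0.333, the smallest possible). The early Rps27l probes disagreed in direction. The main one read 0.7315 and 0.5956 at 0 hr and 0.8514 and 0.99 at 24 hr. A second one, never saturated, read 2.2283 and 2.1094 at 0 hr and 2.0548 and 2.0954 at 24 hr. The early change therefore depends on the probe.

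Rpl22l1, the paralog of Rpl22, was 0.55, 0.85 and 0.57 at 0 hr and -0.37, -0.70 and -0.78 at 120 hr, a change of -1.28 (SE 0.14, adjusted p = 9.40e-07) that was less deep than that of Rpl22. The difference Rpl22l1 minus Rpl22 was 0.84 ± 0.22 (SD, n = 3) at 0 hr and higher by 1.26 at 120 hr (exact permutation p = 0.1). Rpl39, a small protein of the exit tunnel, read -0.18, 0.03 and 0.07 at 0 hr and -0.57, -0.59 and -0.69 at 120 hr (change -0.59, SE 0.07, adjusted p = 1.21e-06). Rpl39l, its paralog known from testis, read -0.37, -0.28 and -0.37 at 0 hr and -1.41, -1.62 and -1.61 at 120 hr (change -1.20, SE 0.09, adjusted p = 2.82e-09). The difference Rpl39l minus Rpl39 changed by -0.61 (exact permutation p = 0.1). The Rpl39 probe lay near background, with a mean Cy3 signal of 598 over the late arrays beside 506 to 653 for the 95th percentile of the negative controls, and exceeded it on 17 of 18 arrays, so that the floor limits how far it could fall and no order of the pair is given.

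Rpl7 changed by -0.90 and its paralog Rpl7l1 by -1.15 (adjusted p = 4.01e-08 and 7.41e-06), and their difference changed by -0.20 with a sign that turned under 5 other ways of processing (exact permutation p = 0.6, 3 arrays against 2 with both unsaturated). Rpl3l, a muscle paralog of Rpl3, changed by -1.14 (SE 0.04, adjusted p = 9.93e-12), but Rpl3 was saturated. Rpl36al was first higher and then lower: it read -0.42, -0.38 and -0.57 at 0 hr, -0.17, -0.23 and 0.22 after 24 hr (change 0.40, adjusted p = 0.0088) and -0.64, -0.89 and -0.96 after 120 hr (change -0.38, adjusted p = 0.0078). Its changes after 48 and 72 hr were 0.39 (adjusted p = 0.0083) and 0.29 (adjusted p = 0.042). Rpl10l, Rpl36a, Rpl5 and Rps4l had no named probe on the late arrays.

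**Figure D3:**
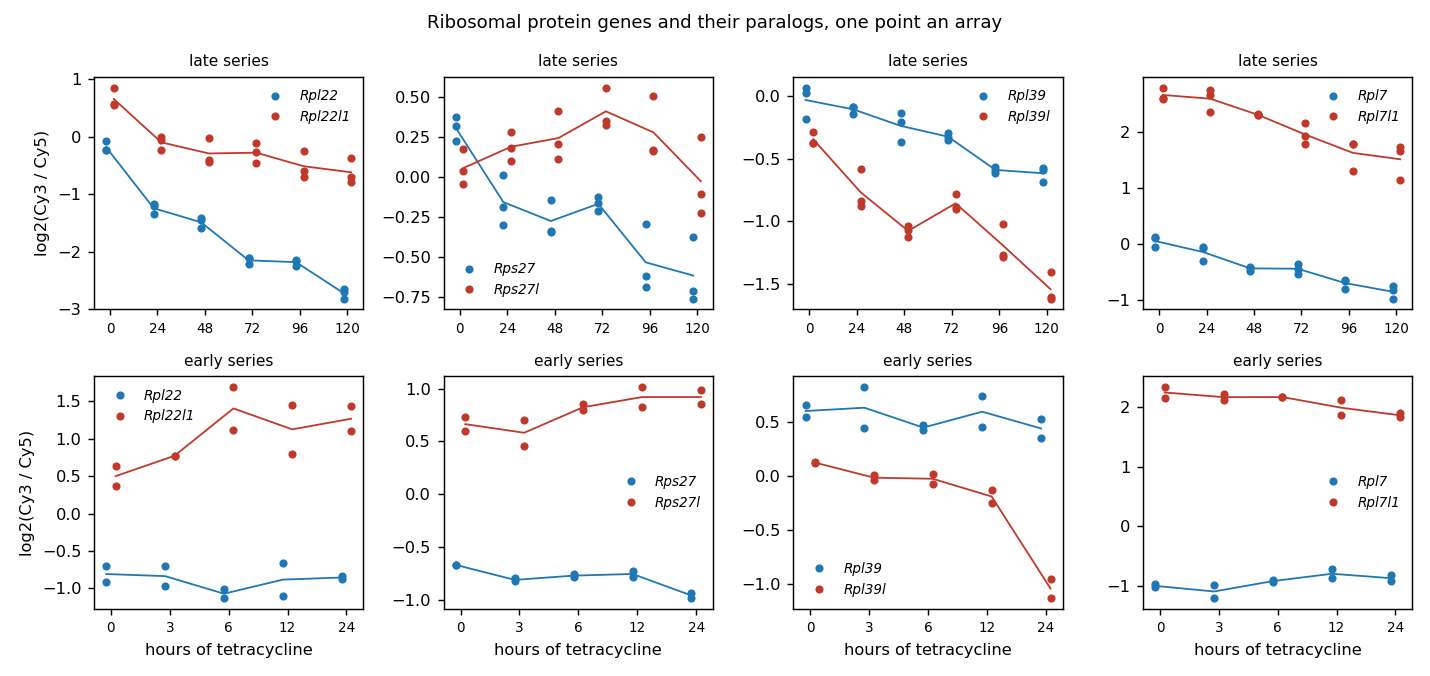
Log2(Cy3/Cy5) of a ribosomal protein gene (blue) and its paralog (red) by main probe on each late array (upper row, 3 a time) and early array (lower row, 2 a time) against hours of tetracycline, with lines through the means. For Rpl22l1 and Rpl7l1 the main probe of the upper row has another sequence than that of the lower row. Rpl22 and Rps27 fall further than their paralogs in the late series, and Rpl39l goes down in both series beside a Rpl39 probe that is near background in the late one; vertical distances between genes are not levels.

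The start sequence was set beside the changes, without a test of the difference. Among the never-saturated main probes with a matched start, the 9 genes with a run of at least 8 pyrimidines had a median change of -0.65 at 120 hr, all 9 lower, and the 26 without one had a median of -1.03, with 25 lower. Of the genes printed above with such a run, Rpl27a and Rpl38 were the lowest and highest of the 9, at -1.40 and -0.38, and Rps27 changed by -0.925.

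Genes around the ribosome were read from fixed lists. Of other probes, 425 were as bright as the upper 75% of the members, and 158 of them were lower and 166 were higher at 120 hr, with a median of 0.0090. Among ribosomal proteins whose symbols fall outside the rule, all 4 probes of Rpsa were lower, by -0.80 to -0.57, as was that of Rack1, the scaffold of the small subunit (-0.38, adjusted p = 0.0070). Fau, made as a fusion with a ubiquitin-like protein, gave -0.57 (adjusted p = 0.0024) on one probe and -0.11 (adjusted p = 0.40) on the other. Of the mitochondrial ribosomal proteins, 28 of 67 probes were lower and 17 were higher, with a median of -0.07. Of translation factors and other mRNAs with pyrimidine starts, 8 of 17 probes were lower and 3 higher, among them both probes of the nucleolar chaperone Npm1 (-1.14 and -1.35). Of the ribosome assembly genes, 26 of 43 probes were lower and 5 higher, with nucleolin (Ncl) at -0.87 and fibrillarin (Fbl) at -0.66. Myc, a regulator of ribosome production, was higher (1.47, adjusted p = 1.50e-10), whereas Mycn (-0.65) and Mycl (-0.76) were lower.

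The cells also changed in kind over the series. Of 11 probes for ES cell markers, 9 were lower at 120 hr (median -2.07), and of 9 for trophoblast markers, 8 were higher (median 2.72). Fibroblast markers gave 1 higher and 1 lower of 4 probes. Their part in the fall of the ribosomal protein genes was not tested. Over the 18 late arrays, the profile of a member had a median r of 0.74 with the median profile of all members, with 37 of 97 above 0.8 and 9 below 0. The 5 other probes most like that median profile were those of Creg2 (r = 0.93), of Nucks1 (r = 0.93) and 3 probes without a gene name (r = 0.93, 0.93 and 0.92). These r values are a description over 18 arrays that share their time points and scaling.

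In the early series, saturation left much of the family unread: 74 of 139 member probes were saturated on some array, 35 of them in both dyes on all 10, so that counts over all 139 do not show that members were stable. No member probe passed at 3 or 12 hr by limma, where 0% and 0.738% of all gene probes passed. At an unadjusted p of 0.05 there were 6 and 13 of 139 (6 and 12 of the 65 never saturated), beside 6.29% and 20.7% of all gene probes. One probe was higher at 6 hr (2.64% of all gene probes passed there, in either direction). By the F test over all times 2 of the 65 never-saturated probes passed and none of the other 74, beside 7.29% of all gene probes. At 24 hr, 7 member probes were lower and 9 were higher, beside 12% and 11.1% of all gene probes, and 7 lower and 7 higher were among the 65 never saturated. The median change of these 65 was 0.04, with 32 below 0, beside -0.06 over all gene probes. Over all 139 it was -0.07, and over the 74 saturated on some array it was -0.07 too. The median M of the never-saturated members was 0.19 and 0.13 at 0 hr and 0.16 and 0.35 at 24 hr, which overlap. The counts rested on single arrays: leaving out the first or the second array of 0 hr left 1 member probe past the threshold (4.91% and 4.71% of all gene probes), and leaving out the second array of 24 hr left 2 (6.25%). The methods' test passed no member probe at 24 hr and none over all times. Its share over all gene probes is not given here, so these counts are not read as a trait of the members.

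The early change with the smallest adjusted p among the members was that of Rpl39l. It read 0.12 and 0.13 at 0 hr, -0.13 and -0.25 after 12 hr, and -1.13 and -0.95 after 24 hr. The change after 24 hr was -1.16 (SE 0.10, 2.24-fold lower, adjusted p = 1.56e-04), and Rpl39 was 0.65 and 0.55 at 0 hr and 0.52 and 0.35 after 24 hr. Rpl39l was lower in the late series at 24 hr too, by -0.42 (adjusted p = 0.0011). Other falls at 24 hr were smaller: Rpl23 changed by -0.58, Rps27a by -0.36, Rps15 by -0.32 and Rps27 by -0.29, while Rpl7l1 changed by -0.38 but by 0.14 on Cy3 alone.

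The rises of the early series were uneven between arrays. Rps3, at the mRNA entry channel, read -0.19 and -0.54 at 0 hr and 1.06 and 1.78 at 24 hr, a change of 1.78 (SE 0.52, adjusted p = 0.037). Its 2 arrays differed widely at 6 hr (-0.04 and 1.40) and 12 hr (0.07 and 1.36). Rps16 changed by 1.36 (adjusted p = 0.044) and Rpl41 by 0.43 (adjusted p = 0.041), yet on Cy3 alone they changed by -0.0038 and -0.15. Rpl3 changed by 0.63 (adjusted p = 0.021) by its never-saturated probe.

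Rpl22l1 shows how far a call can hang on a probe, and its 2 probes are given here for that reason, with the 8 bases they share in capitals.
Rpl22l1 probe 1: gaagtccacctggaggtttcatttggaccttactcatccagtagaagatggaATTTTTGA
Rpl22l1 probe 2: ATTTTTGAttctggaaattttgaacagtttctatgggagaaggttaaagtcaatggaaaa
Probe 1 is on all 3 designs and probe 2 on the early and Nanog designs. On the early arrays, probe 2 read 0.63 and 0.37 at 0 hr and 1.10 and 1.43 at 24 hr (change 0.77, adjusted p = 0.043), with changes of -0.06 to -0.16 on Cy3 alone, after bleaching correction and in the authors' values. Probe 1 read -0.34 and -0.44 at 0 hr and -0.54 and -0.75 at 24 hr (change -0.26, adjusted p = 0.13). On the late arrays probe 1 was lower at 24 hr by -0.75 (SE 0.14, adjusted p = 6.45e-04).

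Both series hold a 24 hr time, and 95 member probes have the same sequence on the late and early designs. Of these, 37 were never saturated on either design. The median change of the 37 at 24 hr was -0.20 in the late series, with 17 lower and 4 higher, beside 15.6% and 15.1% of all gene probes. In the early series it was -0.03, with 6 lower and 3 higher, beside 12% and 11.1%. Of the 95, 10 were lower in both with no overlap between the arrays of 24 and 0 hr, beside 7.46% of the 19197 gene probes that share a sequence, and 3 were lower in the late and higher in the early series without overlap, beside 4.34%. The difference between the series was not tested, and the cultures, designs and scans differ along with it. Of the ribosome assembly genes, 18 of 53 probes were lower and 3 higher at 24 hr of the early series.

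**Figure D4:**
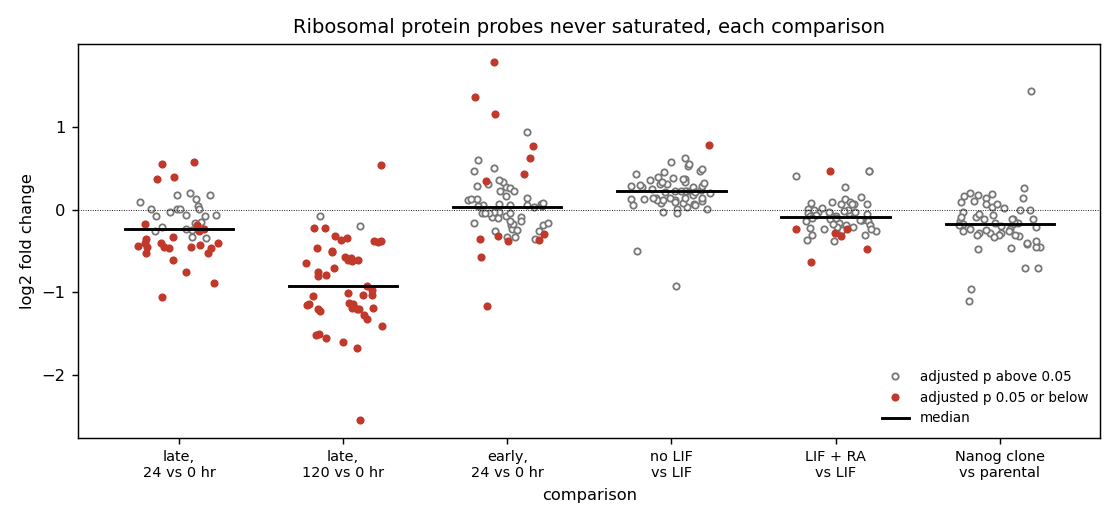
Log2 fold change of each never-saturated ribosomal protein probe (1 point a probe, spread sideways for view) in 6 comparisons, filled where the adjusted p was 0.05 or below, with a bar at the median. The late 120 hr probes centre on -0.93, and the media and clone comparisons have medians of 0.22, -0.09 and -0.17 with few or no filled points.

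Without LIF, the cytokine that holds ES cells in self-renewal, member probes gave 2 higher and 0 lower of 135 calls (limma with the line as a block, 0.854% and 1.16% of all gene probes; 41 of 135 at an unadjusted p of 0.05, beside 14.6% of all gene probes). The 2 were secondary probes of Rpl14 (0.78, adjusted p = 0.039) and Rpl41 (0.37, adjusted p = 0.036, saturated in Cy5), whose main probes changed by 0.14 and 0.28 with adjusted p-values of 0.70 and 0.23. Leaving out 1 line left 0 calls without the clone labelled episomal, the integrated clone or MG1.19, and 1 without 129.3, where 0.444%, 0.251%, 0.0268% and 1.86% of all gene probes passed. The median over members was 0.12, that of other probes as bright was 0.13, and that of all gene probes was 0.0059. By main probe, 29 of 73 genes were higher in all 4 lines and 1 was lower, beside 12.9% and 10.4% of all gene probes and 24.4% and 3.49% of the other probes as bright. Of the 45 main probes never saturated, 21 were higher in all 4 lines.

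The never-saturated members were higher without LIF by a median of 0.60 in the clone labelled episomal, 0.16 in the integrated clone, 0.09 in MG1.19 and 0.01 in 129.3. The LIF array of the clone labelled episomal was also the one with the fewest Cy3-saturated members, 32, against 37 to 75 on the other LIF arrays. The part of brightness in that median was not tested.

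On RA, 6 of 135 member probes were lower (4.4% of all gene probes) and 1 was higher (10.3%). By main probe, 6 of 73 genes were lower in all 4 lines and 6 were higher, beside 13.2% and 17.8% of all gene probes. From LIF to RA, the M of Rpl7l1 went from 1.77 to 0.99 in the clone labelled episomal, 1.97 to 1.79 in the integrated clone, 1.68 to 1.11 in MG1.19 and 1.58 to 1.17 in 129.3, lower in 4 of 4 lines (mean -0.48, SE 0.11, adjusted p = 0.017). Rpl3 (-0.31, adjusted p = 0.032), Rpl9 (-0.24, adjusted p = 0.035) and Rpl27a (-0.24, adjusted p = 0.033) were lower in 4 of 4 lines. A second never-saturated Rpl27a probe was the 1 called higher (0.47, adjusted p = 0.032), so its probes disagree, and a secondary probe of Rps25 was lower (-0.28).

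These RA calls depended on the lines: 21 members passed without the clone labelled episomal, 2 without the integrated clone, 2 without MG1.19 and 1 without 129.3. In the same fits 13.3%, 11.4%, 6.10% and 9.57% of all gene probes passed. By line, the median of the never-saturated members on RA was 0.30 in the clone labelled episomal, where 49 of 58 were above 0, and -0.24 in the integrated clone, -0.09 in MG1.19 and -0.34 in 129.3. Over the lines it was -0.09, beside -0.36 for the ribosome assembly genes, of which 27 of 55 probes were lower and 1 higher. Of the mitochondrial ribosomal proteins, 23 of 86 probes were lower and 1 higher. All 5 probes for RA response genes were higher, and 10 of 17 for ES cell markers were lower.

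Nanog clones were compared with their parental lines in 6 pairs of the same background and medium. The Nanog probe read 1.28, 1.47 and 0.66 in the clone labelled episomal with LIF, without LIF and with RA, below the 1.91, 1.93 and 1.26 of MG1.19, and whether the probe reads the Nanog sequence of the vector is not known, so that it does not check that label. It read 2.48, 2.00 and 2.49 in the integrated clone against 1.61, 1.83 and 1.27 in 129.3. By real-time PCR, the paper reports Nanog raised in both clones, and more in the episomal than in the integrated one. No member probe passed (limma, 0.00732% of all gene probes did), and 46 of 135 had an unadjusted p of 0.05 or below, beside 19.7% of all gene probes. A count of 4 arose without the RA pair of the clone labelled episomal, beside 0.602% of all gene probes. By main probe, 15 of 73 genes were lower in all 6 pairs and 2 were higher in all 6, beside 7.62% and 4.72% of all gene probes. The 2 clones are not replicates of a construct, and these p-values are smaller than 2 clones warrant.

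Among the paralogs, Rpl22l1 and Rpl39l differed most between clones and parents. Rpl22l1 read -0.12, 1.02 and 0.37 in the clone labelled episomal with LIF, without LIF and with RA, and 1.00, 1.66 and 1.00 in MG1.19. It read -0.29, -0.04 and -0.78 in the integrated clone and 1.00, 1.42 and 0.68 in 129.3. It was lower in 6 of 6 pairs (mean -1.10, SE 0.13, adjusted p = 0.062), and its other probe gave -0.96 (adjusted p = 0.065).

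Rpl39l read 2.25, 1.91 and 1.63 in the integrated clone against -0.91, -2.75 and -0.97 in 129.3, a difference of 3.47 ± 1.06 (SD, n = 3 media). In the clone labelled episomal it read -2.35, -1.94 and -2.01 against -0.66, -2.58 and -1.25 in MG1.19, a difference of -0.60 ± 1.17. The integrated clone lay above all 9 other arrays, and the mean over the 6 pairs did not pass (1.44, SE 0.83, adjusted p = 0.39). In Rpl39l both parental lines were lowest without LIF, the clone labelled episomal was lowest with LIF and the integrated clone with RA. The difference of the LIF effect between clones and parents was 1.92 (SE 0.33, unadjusted p = 9.30e-04, adjusted p = 0.81). No gene probe passed that test of the difference, for LIF withdrawal or for RA. Unadjusted, 9 and 5 member probes had a p of 0.05 or below, beside 5.49% and 6.59% of all gene probes.

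**Figure D5:**
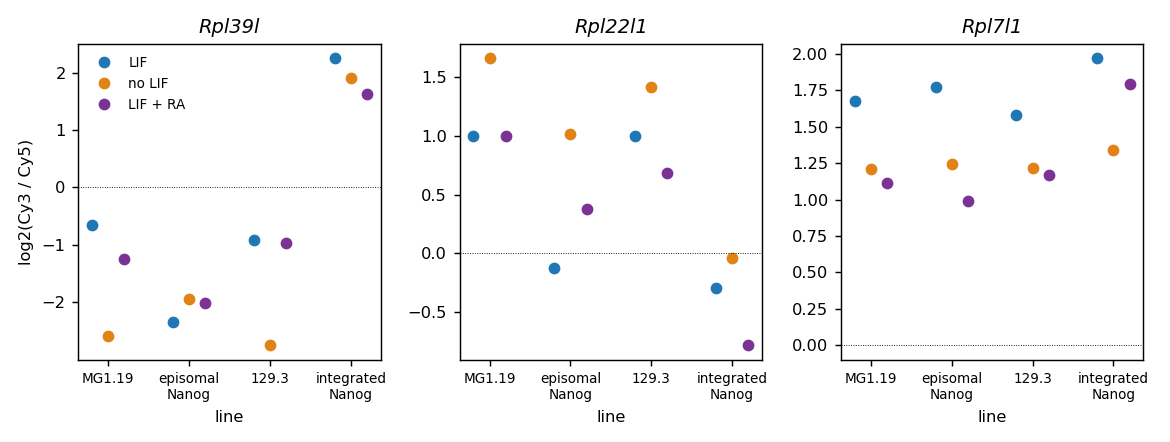
Log2(Cy3/Cy5) of Rpl39l, Rpl22l1 and Rpl7l1 by main probe on the 12 arrays of the Nanog experiment, 1 point an array, by line and medium. Rpl39l is between 1.63 and 2.25 in the integrated Nanog clone and below -0.6 in the other lines, and Rpl22l1 is lower in each clone than in its parental line in the same medium.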

How the data were processed

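ES cells were profiled on 3 Agilent designs (18, 10 and 12 arrays). The authors deposited Feature Extraction output, with the mean signal and background of each spot in intensity units, and tables of normalized values in log10 units. A column of the values deposited for the Nanog experiment counts as a score, since some of its cells hold a code for missing data, which was set to missing. Fold changes computed by the authors were not used.

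From the intensities, limma 3.58.1 (R 4.3.3) corrected the background by normexp (offset 50) and the dyes by loess within arrays. Outlier spots were dropped, saturated spots kept, and spots of a probe averaged as log2(Cy3/Cy5). Groups came from the sample labels. Where labels and the paper name the parental lines or a protocol differently, the titles and the paper were followed. Linear models with eBayes were fitted over all gene probes (Benjamini-Hochberg, threshold 0.05), with the line as a block for media and the pair for clones. No spot has counts, so the number of arrays limits precision, and p-values measure the spread between arrays, which may be technical where no source says that they came from separate cultures. The steps were tested on simulated data.

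Probes were named through the accession in the files (93 late, 127 Nanog), an identical probe of another design (4 late, 119 early, 8 Nanog) or the paper's tables (20 early). The members and lists were chosen with earlier results of these data known. Named were, for each comparison, up to 6 rises and 6 falls past the threshold with no overlap between groups or the same sign in every line or pair, the paralogs, the stalk, Rps6, Rpl5, Rpl11, Rps19, Rpl38 and Rps25, and 5 probes most like the members. Some genes that the rule or a list holds are not reported here. A secondary probe of Rps2, Rps6, Rpl14, Rpl41, Rpl27a, Rps25, Rps23, Rpl29, Rpl7l1 and Rps27l, and Rps4x, Rpl10, Rps9, Rps10, Rpl12 and Rps27a in the late series, and the examples from the lists of other genes, were named after their values were seen. Sample sharing was checked: at most 0.041% of Cy3 values were identical between any arrays.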

Additional observations from a re-analysis of the deposited data

Results flagged for a closer look

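A line or pair stood apart from the others in 8 of 84 medium or clone differences, those of the named genes and of the median over member probes. Chance sets a sample apart in about 1 in 20 independent groups. These differences share arrays, so their count cannot be set against that rate. Rpl22 differed by 1.18 without LIF in the integrated clone, and by -0.13 to 0.07 in the other lines. Its clone minus parental difference was 0.79 in the pair of the integrated clone without LIF and -0.52 to -0.10 in the other pairs. Both rest on the same array. The clone labelled episomal stood apart in 6 differences. Without LIF, Rps27a differed by 0.95 there against 0.02 to 0.14 elsewhere, and Rpl36a by 0.92 against 0.13 to 0.18. On RA, Rps27a differed by 0.45 against -0.30 to -0.18, Rpl38 by 0.20 against -0.53 to -0.41, and Rpl3l by 0.062 against -0.35 to -0.31. These 5 share the LIF array of that clone, the one with the fewest saturated members. The clone minus parental difference of Rpl27a on RA was 0.11 against -0.08 to -0.02.

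At 24 hr of Tet, 3 probes differed from 0 hr in opposite directions on all late and all early arrays, a difference that was not tested. Rplp2 changed by 0.60 in the early series and by -0.46 in the late one, Rpl36 by 0.46 and -0.41, and Rpl15 by 0.35 and -0.18. The early changes did not pass (limma, adjusted p = 0.10, 0.15 and 0.090), and the late ones did (adjusted p = 1.06e-04, 0.030 and 0.026).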

How the results depend on the processing

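The fall of the late series held its direction under every alternative run. Its count of 72 lower probes became 43 of the 65 member probes in the authors' normalized values, and was 65 to 89 in the other settings that kept all arrays and probes. Its median of -0.51 became -0.97 with median centring in place of loess and -0.81 with saturated spots missing. Leaving out 1 array gave counts of 67 to 76, medians of -0.60 to -0.50, and 67 to 74 probes by the F test. Paralog minus gene then ranged from 1.09 to 1.38 for Rpl22l1, 0.76 to 0.90 for Rps27l, -0.68 to -0.55 for Rpl39l and -0.31 to -0.08 for Rpl7l1. The last reversed to 0.26 (median centring), 0.0012 (loess with ribosomal and translation probes at weight 0), 0.12 (no background correction), 0.091 (Feature Extraction signals) and 0.037 (authors' values). The rises of Rplp1, Rps2, Rpl3 and Rps14 reversed with median centring (-0.079, -0.10, -0.19 and -0.19), and those of Rpl3 and Rps14 also on Cy3 alone (-0.029 and -0.013). The causes were not tested.

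For the early series, the 16 probes at 24 hr became 10 with median centring, 9 with Feature Extraction signals (median 0.18), 4 in the authors' values, 2 after Cy5 bleaching correction, 10 on Cy3 alone and 0 by the methods' test, and 1 to 18 without 1 array (medians -0.11 to 0.08). The F test's 2 became 5 with no background correction, with quantile normalization between channels and on Cy3 alone, 0 by the methods' test, and 1 to 8 without 1 array: 1 without the first of 0 hr, 4 without the first of 6 or of 12 hr, and 8 without the first of 24 hr. Reversed were Rpl22l1 (-0.16 in the authors' values, -0.16 after bleaching correction and -0.060 on Cy3 alone) and, on Cy3 alone, Rps16 (-0.0038), Rpl41 (-0.15) and Rpl7l1 (0.14). With the replicate number as a block the F test's 2 became 5, and it changed no other count of members by over 1.5 times. Equal numbers were not taken as pairs. The residuals of same-numbered late arrays correlated unevenly, from -0.43 to 0.75, with 11 of 18 arrays best with their own number. Those of early arrays correlated from -0.14 to 0.34, with 10 of 10 best with their own number, which is no reason against pairs there. Whether equal numbers share a batch was not tested.

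For the media, the 2 probes without LIF became 1 with median centring, Feature Extraction signals, authors' values, saturated spots missing or quantile normalization, 0 with no background correction, and 0 to 1 without 1 line (medians 0.04 to 0.15). The 7 probes on RA became 4 with median centring, 12 with Feature Extraction signals or Cy3 alone, 11 in the authors' values, 13 with quantile normalization, and 1 to 21 without 1 line (medians -0.07 to 0.06). The clone median of 0.03 became 0.13 with Feature Extraction signals and with the authors' values, -0.19 with saturated spots missing, and 0.02 to 0.08 without 1 pair, where the count was 0 to 4. Quantile normalization and Cy3 alone were chosen after seeing the data. Signal limits the members mostly at the top: 95 of 97 late probes exceeded the negative controls on every array, the others being of Rpl37 and Rpl39.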
